A study of Mus musculus with 4 samples.

Results

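The tenascin genes Tnxb, Tnc, Tnn and Tnr were examined in RNA-seq libraries of mouse hair follicle stem cells, with 2 libraries from mice on a high-fat diet (HFD) for 4 months and 2 from mice on a normal diet (ND). They are 4 of the 55401 genes in the deposited table, taken by gene symbol, and 3 of them passed the filter on low counts, as did 14479 genes in all. All mice were C57BL/6 and the cells came from anagen follicles, that is, follicles growing hair. The labels give no age, sex or method of cell isolation, and leave unsaid whether each library is a separate mouse, so that p-values cover only variation among these 4 libraries, possibly technical in origin. The family was selected on the expression values of Tnxb in these same libraries, already known to differ between the diets. The diet values of the 4 genes are therefore given as a description, without a test.

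Tenascins are large multimeric glycoproteins of the extracellular matrix, built from epidermal growth factor-like repeats, fibronectin type III domains and a terminal fibrinogen-like globe. They bind collagens, fibronectin, proteoglycans and integrins, and generally modulate how firmly cells adhere. Tenascin C is deposited in growing, remodelling and wounded tissue and in the matrix around the follicle bulge, where the stem cells reside. Tenascin X, the product of Tnxb, organises collagen fibrils in dermis and tendon, and its loss in humans causes a form of Ehlers-Danlos syndrome with fragile, stretchable skin. Tenascin R is a protein of the central nervous system, and tenascin N, also called tenascin W, is best known from bone.

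Total counts were between 8590570 and 9940848 per library, and 3 counts corresponded to between 0.291 and 0.358 CPM (read counts scaled to the library total, adjusted by edgeR's TMM method). Libraries of a diet differed by more than sampling noise, with a chi-square per degree of freedom of 6.53 for the HFD pair and 13.9 for the ND pair. Over all genes tested, 1.35% were called between the diets (195 of 14479, edgeR quasi-likelihood test, adjusted p under 0.05), with 162 higher and 33 lower with the HFD. Scaling by library totals alone gave 132 higher and 65 lower, and scaling to equal sums of TPM gave 88 higher and 3 lower. When the first ND library was left out, 0 genes were called, although 1488 reached an unadjusted p under 0.05. Without the second ND library 3 genes were called. Without the first HFD library 83 were called, 74 of them among the 195, and without the second 58, of them 52.

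The annotated starts of the 2 tenascin genes with substantial expression are shown first, because both genes had higher values with the HFD. Each window of 300 bases, from RefSeq on GRCm38.p6, runs from 250 bases before the start site to 50 bases beyond it. Capitals mark matches, on either strand, to the AP-1 motif TGANTCA, the TATA box TATAAA, the GC box GGGCGG or the CCAAT box. In the Tnxb window (chr17:34670285-34670584, plus strand) only the AP-1 letters of these motifs occur, beginning 55 bases before the start site, and the motif is found in 7.8% of 32851 annotated promoter windows of the same length. In the Tnc window (chr4:64046966-64047265, minus strand) the TATA box letters begin 126 bases before and the GC box letters 167 bases before the start, and these are found in 13.6% and 35.7% of windows.
Tnxb: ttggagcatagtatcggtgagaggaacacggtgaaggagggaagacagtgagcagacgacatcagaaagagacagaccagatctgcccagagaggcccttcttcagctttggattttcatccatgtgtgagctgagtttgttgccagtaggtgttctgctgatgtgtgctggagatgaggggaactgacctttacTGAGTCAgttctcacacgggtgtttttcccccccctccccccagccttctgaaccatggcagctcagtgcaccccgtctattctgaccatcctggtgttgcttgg
Tnc: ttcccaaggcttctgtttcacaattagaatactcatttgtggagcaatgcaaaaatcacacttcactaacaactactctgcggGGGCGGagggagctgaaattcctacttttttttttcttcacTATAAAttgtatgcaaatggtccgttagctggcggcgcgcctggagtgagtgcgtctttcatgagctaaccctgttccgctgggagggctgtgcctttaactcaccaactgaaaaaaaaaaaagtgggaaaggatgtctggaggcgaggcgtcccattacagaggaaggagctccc
The E-box letters CANNTG, which are in 72.3% of windows and are not capitalised, occur 1 time in the Tnxb window and 3 times in the Tnc window, and the TEAD letters CATTCC, in 14.7% of windows, in neither. The matches are letters in these windows and do not show binding. The gene model of Tnxb in the deposited table starts 10078 bases upstream of this RefSeq start, so for Tnxb the window lies inside the counted gene. From the RefSeq start on, the Tnxb letters begin with atg, the letters of a start codon. Whether transcription starts there is not known, so the window may not be a promoter of Tnxb. Its AP-1 letters are therefore not a promoter motif on this evidence. RefSeq lists a further start for Tnc, whose window overlaps the one shown. From that start the same TATA box and GC box letters begin 205 and 246 bases before. The further window also holds the letters tatataag, closer to its start, which the pattern TATAAA does not match. Which letters act as a TATA box was not tested.

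Tnxb, the gene of tenascin X (ENSMUSG00000033327, chromosome 17, positions 34660457 to 34719815, plus strand, GRCm38), had the largest difference between the diets among the family. Its counts were 569 and 628 in the HFD libraries, against 74 and 78 in the ND libraries. On a scale that accounts for exonic length and library total (FPKM) these were 4.83 and 5.42 with the HFD, against 0.55 and 0.62 with the ND. Both HFD libraries stood far above both ND libraries, a separation in this direction that 22.7% of all genes tested showed, and the libraries of each diet lay close together. Mean expression was 71.2 ± 5.22 CPM with the HFD and 7.66 ± 0.690 CPM with the ND (SD, n = 2 each), a 9.30-fold difference. The fitted log2 fold change was 3.22 with a standard error of 0.21. Counted from the largest, it ranked at 53 among all genes tested. It was exceeded by 11 of the 12255 tested genes whose mean FPKM over the 4 libraries was 1 or more. Tnxb reached that mean through its HFD libraries, as both its ND values were below 1 FPKM. Leaving out any 1 of the 4 libraries gave log2 fold changes of Tnxb between 3.13 and 3.31.

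Tnxb moved little between the libraries of a diet, which was not particular to it. The log2 ratio of the first to the second library was -0.15 within the HFD and -0.18 within the ND. For Tnc the same ratio was 0.19 within the HFD and 0.18 within the ND. An example of a variable gene is Thbs1, which encodes the adhesive matrix protein thrombospondin 1. It stood at 94.5 and 434 CPM in the same ND libraries.

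**Figure D1:**
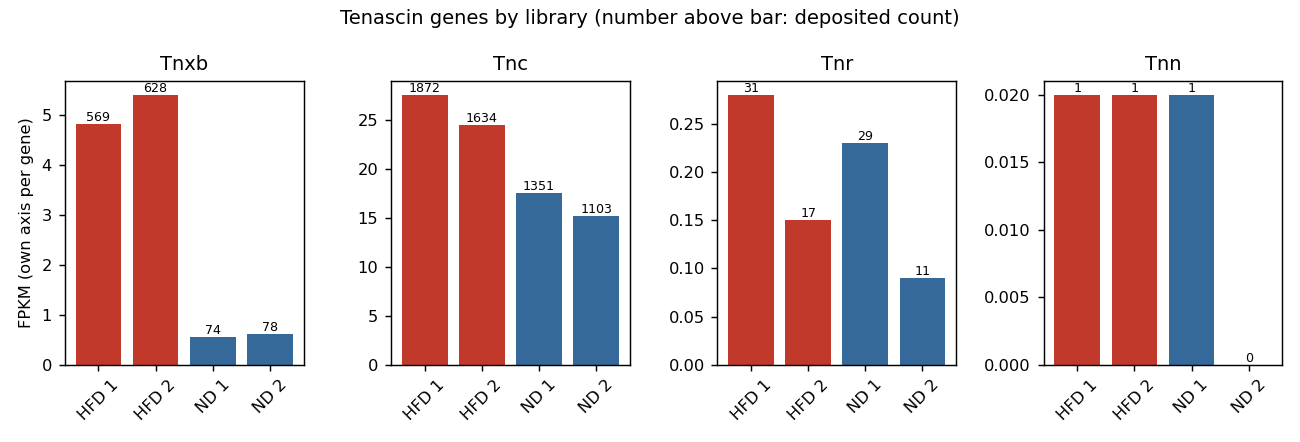
Expression of the tenascin genes in each library, as FPKM with a separate axis starting at 0 for each gene, HFD libraries in red and ND libraries in blue, and the deposited count above each bar. Tnxb and Tnc are higher in both HFD libraries than in either ND library, Tnr overlaps between the diets, and Tnn has at most 1 count per library.

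The surroundings of Tnxb were examined because the gene lies in the crowded class III region of the major histocompatibility complex and has relatives and overlapping genes nearby. The table held 24 other genes within 100 kb of it, of which 6 had no count in any library. Of the 9 that passed the filter 0 were called between the diets (edgeR quasi-likelihood test, smallest adjusted p = 0.481), and DESeq2 called 0. With 1.35% of all genes tested called, a call among 9 genes would be rare in any case. An unadjusted p under 0.05 (edgeR) was reached by 0 of the 9, and by 13.3% of all genes tested. Their log2 fold changes had a median of -0.17, with 2 positive and 7 negative, against a median of 0.00181 and 50.1% positive over all genes tested. For 2 of these 9 genes both HFD libraries were above both ND libraries and for 1 both were below, where 44.6% of all genes tested showed such a separation in either direction.

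The nearest tested gene upstream was Atf6b, a transcription factor of the endoplasmic reticulum stress response that ends 5.38 kb before Tnxb. It had 370 and 465 counts with the HFD, against 508 and 483 with the ND, and its log2 fold change was -0.0039 ± 0.18 (SE). The nearest downstream was C4b, a complement component 8.57 kb beyond the end of Tnxb on the opposite strand. It had 89 and 57 counts with the HFD, against 58 and 45 with the ND. Its log2 fold change of 0.75 ± 0.42 (SE) did not pass the test (edgeR adjusted p = 0.481). C4b and its relative C4a align over 99.9% of the longest C4a transcript at 96.0% identity, so their separate counts are uncertain. C4a had 2 and 10 counts with the HFD, against 11 and 17 with the ND.

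The other tested neighbours lay upstream, and 5 of these 6 had negative values, none of which passed the test. Fkbpl, an immunophilin-like protein, and Ppt2, a lysosomal thioesterase, had log2 fold changes of -0.68 ± 0.63 and -0.56 ± 0.60 (SE). Agpat1, an acyltransferase that makes phosphatidic acid, and Pbx2, a homeodomain transcription factor, had -0.12 ± 0.23 and -0.17 ± 0.20 (SE). The ubiquitin ligase gene Rnf5 and Gm20463, which is antisense to it, had 0.33 ± 0.46 and -0.34 ± 0.90 (SE). The counting of strand is not given in the sources used here, so reads of this overlapping pair cannot be told apart. Among the 15 neighbours too low to test, Cyp21a1, the steroid 21-hydroxylase gene, had 12 and 3 counts with the HFD and 0 in both ND libraries. It overlaps the end of the pseudogene Tnxa on the opposite strand. Gpsm3 was also higher in both HFD libraries, with 6 and 5 counts against 2 and 1 with the ND. So was Ager, but only after scaling to CPM, with 5 and 18 counts with the HFD against 6 and 3. None of the 15 was lower in both HFD libraries. Others overlapped between the diets, such as Egfl8, with 25 and 2 counts with the HFD, against 9 and 8 with the ND. Notch4 had 3 and 4 counts with the HFD, against 0 and 19 with the ND.

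**Figure D2:**
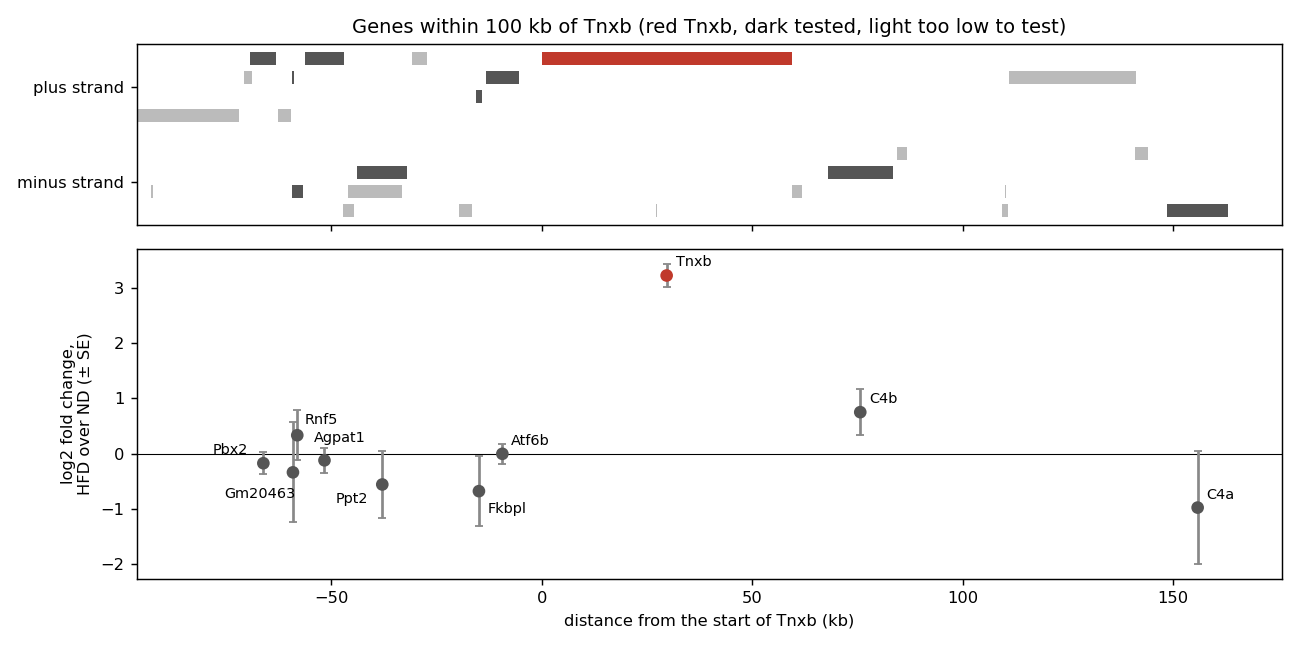
Genes within 100 kb of Tnxb, placed by distance in kilobases from the start of Tnxb and by strand (upper panel), and the log2 fold change of each tested gene, HFD over ND, with its standard error (lower panel). Tnxb stands at 3.22, while its 9 tested neighbours lie between -0.97 and 0.75.

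Reads of a close relative or of an overlapping gene could enter the count of Tnxb, and the table bears on both. Tnxa, an unprocessed pseudogene related to Tnxb that begins 51.6 kb beyond its end, had 0 counts in all 4 libraries, where 3 counts would be the limit that such a count allows. In GENCODE M21 the Tnxa transcript of 2975 bases aligned to the Tnxb transcript of 12209 bases over 61.5% of its length, at 94.5% identity. How the authors' program treated reads that fit both is not given in the sources used here. Cyp21a2-ps, a pseudogene on the opposite strand that shares 3 bases with the end of Tnxb, had 0 and 0 counts with the HFD and 2 and 0 with the ND. The small RNA gene Gm24389 inside Tnxb had none. The longest transcripts of Tnc, Tnr and Tnn gave no alignment to that of Tnxb with megablast.

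Tnc, the gene of tenascin C (ENSMUSG00000028364, chromosome 4, positions 63959785 to 64047015, minus strand), was the most abundant tenascin in every library. Its counts were 1872 and 1634 in the HFD libraries, against 1351 and 1103 in the ND libraries, and its FPKM were 27.58 and 24.47 with the HFD, against 17.49 and 15.15 with the ND. The diets did not overlap, and as a fold the difference was smaller than that of Tnxb. Mean expression was 209 ± 19.3 CPM with the HFD and 123 ± 11.1 CPM with the ND (SD, n = 2 each), a 1.70-fold difference and a log2 fold change of 0.76 ± 0.14 (SE). It lay between 0.66 and 0.86 with any 1 library left out. Its log2 fold change ranked at 1354 among all genes tested, and was exceeded by 719 of the same 12255 genes. Only 2, 0, 1 and 0 counts fell on 8030451A03Rik, which overlaps Tnc on the opposite strand, in the first and second HFD and the first and second ND library.

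Tnr, the gene of the neural tenascin R (ENSMUSG00000015829, chromosome 1, positions 159523769 to 159931729, plus strand), was low. It had 31 and 17 counts with the HFD, against 29 and 11 with the ND, or 0.28 and 0.15 FPKM with the HFD, against 0.23 and 0.09 FPKM with the ND. The diets overlapped, and the first library exceeded the second by a log2 ratio of 0.86 within the HFD and 1.29 within the ND. The log2 fold change between the diets was 0.52 with a standard error of 0.74. It ranged from 0.021 without the second ND library to 1.31 without the first. The standard error exceeded the fold change, and a difference between the diets was not tested.

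Tnn, the gene of tenascin N (ENSMUSG00000026725, chromosome 1, positions 160085029 to 160153580, minus strand), had 1 count in each HFD library, against 1 and 0 counts in the ND libraries. It did not pass the filter, and no fold is given. At its exonic length 3 counts correspond to between 0.0519 and 0.0600 FPKM, so levels up to that size could not be told from 0. Tnn and Tnr are the only pair of the family on one chromosome, and both were low in all 4 libraries.

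Per length, the order of the family was Tnc, Tnxb, Tnr and Tnn in each of the 4 libraries, and within each diet the values of neighbours in that order did not overlap. Ranked by mean FPKM among the 24790 genes with a count, Tnc was at 1898, Tnxb at 9625, Tnr at 17994 and Tnn at 23742. The step between Tnc and Tnxb differed between the diets. Tnc exceeded Tnxb 5.71-fold and 4.52-fold in the HFD libraries, against 31.7-fold and 24.5-fold in the ND libraries. As a share of the summed TPM of the 4 genes, where TPM are counts per exonic length scaled to the same total in each library, Tnxb made up 14.8% and 18.0% with the HFD, against 3.02% and 3.89% with the ND. The share of Tnc was 84.3% and 81.4% with the HFD, against 95.6% and 95.5% with the ND. A bulk measurement does not tell more RNA per cell from more cells that carry it.

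Of the receptors of tenascins 1 gene was called between the diets. Of 22 genes listed as receptors, among them integrin chains, 18 passed the filter, and 1 was higher and 0 were lower (edgeR adjusted p under 0.05), where 1.12% of all genes tested were higher and 0.228% lower. The median log2 fold change of the 18 was 0.17, against 0.00181 over all genes tested, with 13 positive and 5 negative. The gene called was Anxa2, annexin A2, a membrane-binding protein reported as a receptor of tenascin C. It stood at 589 and 561 CPM with the HFD, against 371 and 376 CPM with the ND, a log2 fold change of 0.62 ± 0.11 (SE; edgeR adjusted p = 0.026). The call of Anxa2 was lost without any 1 of the libraries (adjusted p between 0.153 and 0.464), when the libraries were scaled to equal sums of TPM (adjusted p = 0.202) and in limma (adjusted p = 0.328).

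By mean FPKM, the most abundant receptor genes beside Anxa2 were Sdc4, the heparan sulfate proteoglycan syndecan 4, and Itgb1, the integrin chain shared by most matrix receptors. Sdc4 stood at 298 and 293 CPM with the HFD, against 253 and 258 CPM with the ND, and did not pass the test (log2 fold change 0.21 ± 0.12 (SE), edgeR adjusted p = 0.479). Itgb1 stood at 395 and 384 CPM with the HFD, against 364 and 343 CPM with the ND, and did not pass either (0.14 ± 0.12 (SE), edgeR adjusted p = 0.673). Integrin alpha chains that bind tenascin C differed in level. Itgav had 16.30 and 15.18 FPKM with the HFD, against 16.59 and 16.40 FPKM with the ND, whereas Itga9 had at most 0.21 FPKM and Itga8 at most 0.90 FPKM in any library. Ptprz1 and Cntn1, neural partners of tenascin R, had at most 0.84 and 0.23 FPKM.

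Among the matrix molecules that tenascins bind no gene was called. Of 28 genes listed, 24 passed the filter and 0 were called (edgeR, with 6 at an unadjusted p under 0.05, a level reached by 13.3% of all genes tested, and 0 called by DESeq2). With 1.35% of all genes tested called by edgeR, a count of 0 is near the share over all genes. Their median log2 fold change was 0.03, with 13 positive and 11 negative, and the sign of the median turned with library totals alone (-0.06), equal sums of TPM (-0.05), in limma (-0.04) and without the first HFD library (-0.002). The median over all genes of the fit reported turned negative as well in these settings, at -0.09, -0.07, -0.06 and -0.005 in the same order. By mean FPKM the most abundant were Fbln1, the elastic fibre-associated protein fibulin 1, Hspg2, the basement membrane proteoglycan perlecan, and Bgn, the small proteoglycan biglycan. Fbln1 stood at 259 and 237 CPM with the HFD, against 308 and 361 CPM with the ND (log2 fold change -0.43 ± 0.13 (SE), edgeR adjusted p = 0.161). Bgn stood at 295 and 225 CPM with the HFD, against 301 and 362 CPM with the ND (edgeR adjusted p = 0.346). Hspg2 stood at 736 and 741 CPM with the HFD, against 930 and 719 CPM with the ND, with a log2 fold change of -0.16 ± 0.13 (SE; edgeR adjusted p = 0.677). With the replicate number as a block the fibril-associated collagen gene Col12a1 was called higher (adjusted p = 0.044, against 0.179 without the block). The lecticans Acan and Ncan, proteoglycan partners of tenascins in cartilage and brain, had no count, and Bcan had 1 count in all.

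Other matricellular proteins are secreted molecules that like tenascins act on cells more than they build structure. Of 24 listed, 15 passed the filter and 0 were called (edgeR, with 1 at an unadjusted p under 0.05, and 0 called by DESeq2). Over all genes tested 1.35% were called and 13.3% reached that unadjusted level, so a count of 0 called is near the share over all genes. Their median log2 fold change was 0.20, with 10 positive and 5 negative, and it ranged from 0.03 without the first ND library to 0.60 without the second. Postn, periostin, was the most abundant by mean FPKM and stood at 2124 and 1252 CPM with the HFD, against 1231 and 1970 CPM with the ND. Tgfbi, a matrix protein induced by transforming growth factor beta, stood at 601 and 472 CPM with the HFD, against 424 and 574 CPM with the ND. Both overlapped between the diets. Thbs1 stood at 547 and 476 CPM with the HFD, against 94.5 and 434 CPM with the ND, and its log2 fold change of 0.95 ± 0.46 (SE; edgeR adjusted p = 0.398) was 0.24 without the first ND library and 2.43 without the second. With the replicate number as a block Thbs1 was called higher (log2 fold change 1.32, edgeR adjusted p = 0.00224), as was its relative Thbs2 (1.44, edgeR adjusted p = 0.0104, against 0.213 without the block).

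**Figure D3:**
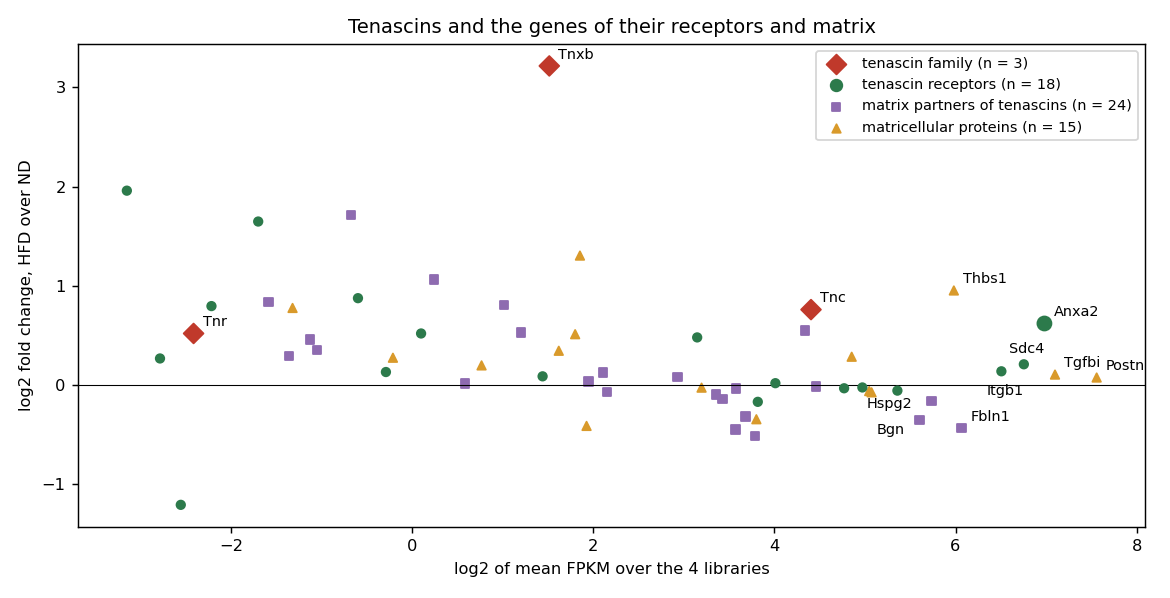
Log2 fold change, HFD over ND, against the log2 of the mean FPKM over the 4 libraries, for the 3 tenascins that passed the filter and for the tested genes of the receptor, matrix partner and matricellular lists. Tnxb at 3.22 lies above every listed gene, Tnc at 0.76 lies among them, and Anxa2 (large circle) is the 1 listed gene that was called.

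Because tenascin X is chiefly a product of fibroblasts, and because cells isolated from skin can carry along other types, marker genes of several cell types were set beside Tnxb. Bulge stem cell markers summed to 2701 and 2663 FPKM with the HFD, against 2148 and 2632 FPKM with the ND, with a count for 12 of 12. Of 11 tested 0 were called by edgeR, where 1.35% of all genes tested were called, and DESeq2 called 1 higher and 1 lower. An unadjusted p under 0.05 (edgeR) was reached by 6 of the 11, and by 13.3% of all genes tested. Of the 11, 5 had positive and 6 negative log2 fold changes. The sum was carried by Krt15, at 1640 and 1641 FPKM with the HFD, against 1170 and 1571 FPKM with the ND, and by Col17a1. Sox9, Lhx2, Cd34, Nfatc1, Lgr5 and Tbx1 were each lower in both HFD libraries than in either ND library, without passing the test. Krt15, Itga6, Foxc1 and Col17a1 were each higher in both, also without passing it. Over all genes tested 21.9% were separated in this way as lower and 22.7% as higher. Fibroblast markers were low apart from Fbln1. The other 11 summed to 15.4 and 14.2 FPKM with the HFD, against 6.67 and 10.8 FPKM with the ND, a sum formed after Fbln1 was seen to dominate the list. With Fbln1 the sums were 72.5 and 67.2 FPKM with the HFD, against 79.8 and 95.2 FPKM with the ND. Of the 12 fibroblast markers 9 passed the filter and 0 were called (edgeR, with 4 at an unadjusted p under 0.05; DESeq2 called 0), 8 had positive and 1 a negative log2 fold change, and Twist2 had no count. The median log2 fold change of the 9 was 0.53. For 6 of the 9 both HFD libraries were above both ND libraries, and for 1 both were below, where 22.7% and 21.9% of all genes tested were so. The surface glycoprotein Thy1 stood at 4.32 and 5.44 FPKM with the HFD, against 0.47 and 3.03 FPKM with the ND, and the collagen Col3a1 at 1.75 and 1.38 FPKM with the HFD, against 0.70 and 0.89 FPKM with the ND. The proteoglycan Dcn stood at 2.78 and 2.25 FPKM with the HFD, against 1.12 and 1.94 FPKM with the ND. The collagen Col1a2 stood at 1.47 and 1.45 FPKM with the HFD, against 1.55 and 1.52 FPKM with the ND, and the receptor Pdgfra at 0.41 and 0.27 FPKM with the HFD, against 0.22 and 0.28 FPKM with the ND. The part of fibroblasts in the level of Tnxb was not tested.

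Epidermal markers summed to 1753 and 2215 FPKM with the HFD, against 607 and 1203 FPKM with the ND, and 5 of 10 were higher and 1 was lower by edgeR (5 and 0 by DESeq2), where 1.12% of all genes tested were higher and 0.228% lower. Those higher were Krt10, Krtdap, Krt77, Dsg1a and Ly6d, and the lower one was Flg, which encodes the cornified layer protein filaggrin (log2 fold change -2.27 ± 0.47 (SE), edgeR adjusted p = 0.041). The ND libraries differed in this sum and in Krt1 (70.0 and 259 FPKM), and less in Dsg1a (22.1 and 24.7 FPKM). Dermal papilla and sheath markers summed to 12.2 and 13.0 FPKM with the HFD, against 16.0 and 7.57 FPKM with the ND. Of the 7 tested of 12 the signalling regulator Rspo3 was called higher, and those without a count included Corin, Sox2 and Acan. The log2 fold changes of the 7 ranged from -1.01 to 4.87 with a median of 0.72, with 5 positive and 2 negative. For 4 of the 7 both HFD libraries were above both ND libraries and for 0 both were below, where 22.7% and 21.9% of all genes tested were so. Immune markers summed to 21.2 and 23.5 FPKM with the HFD, against 10.6 and 17.1 FPKM with the ND, and Itgam had no count. Schwann cell, endothelial and melanocyte markers summed to at most 2.86, 4.24 and 10.5 FPKM in any library, and of 6 adipocyte markers Fabp4 alone had counts. Of the tested Schwann cell, endothelial, melanocyte and immune markers (4, 4, 5 and 6 genes) 0 were called by edgeR, with 1, 0, 0 and 2 at an unadjusted p under 0.05, and 0 by DESeq2. Of all genes tested 13.3% reached that unadjusted level. In the same order the median log2 fold changes were 0.18, 0.75, -0.58 and 1.02. Both HFD libraries were above both ND libraries for 1, 3, 0 and 4 of these genes, and below for 1, 0, 1 and 0. The part of these cell types in the values of the tenascins was not tested.

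**Figure D4:**
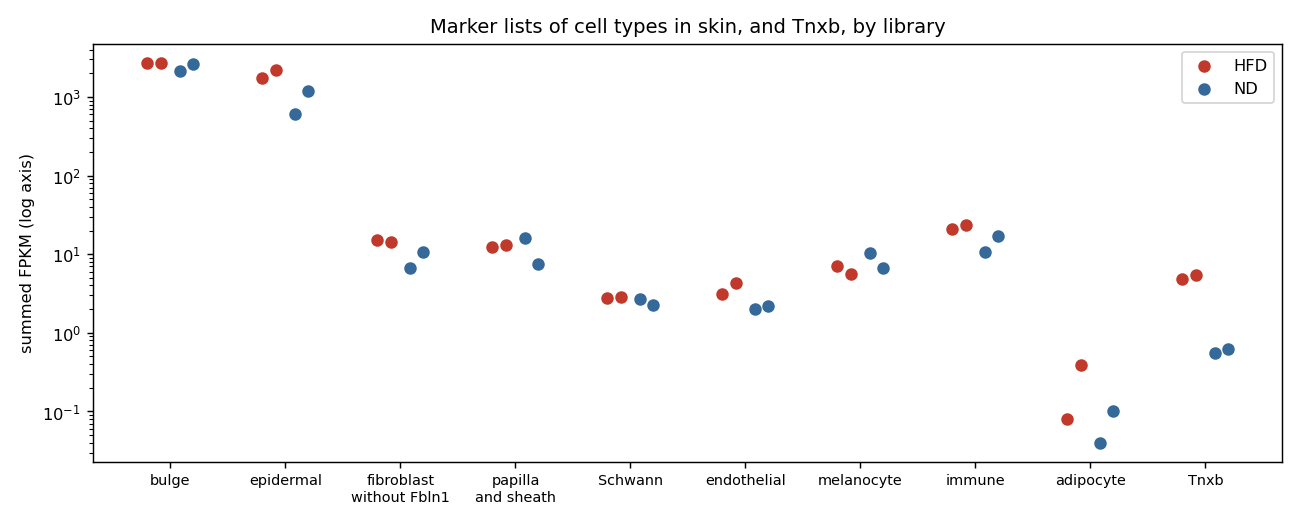
Summed FPKM of marker lists for cell types of skin, on a log axis, with FPKM of Tnxb at the right, 1 point per library, HFD in red and ND in blue. The bulge list lies between 2148 and 2701, and the fibroblast list without Fbln1 lies between 6.67 and 15.4. Tnxb is 1 gene, chosen for its difference between the diets, and the lists are sums over genes, so their gaps cannot be compared.

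Genes whose pattern over the 4 libraries was most like that of each tenascin were found among 10894 genes (10895 for Tnr) whose mean FPKM was 1 or more, with unnamed gene models and mitochondrially encoded genes left out, by the root mean square difference of centred log2 CPM. With 4 libraries in 2 diets this measure mostly matches the size of the diet difference, and it is given as a description. Nearest to Tnxb was Clca3a2, a chloride channel accessory gene, at a difference of 0.12 on the log2 scale, with 3098 and 2937 counts with the HFD, against 434 and 447 with the ND. Clca3a2 has close paralogs, so its counts are uncertain. Slc24a3, a sodium-calcium exchanger that also carries potassium, followed at 0.12 with 118 and 162 counts with the HFD, against 15 and 18 with the ND. Next were Cpxm2, a carboxypeptidase-like protein, at 0.16, the interleukin 12 receptor chain Il12rb2 at 0.18, the secreted semaphorin Sema3d at 0.21 and the kinase Pak6 at 0.30. All 6 lie on chromosomes other than 17.

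Nearest to Tnc were Anxa1, annexin A1, at a difference of 0.03, Tm2d3 at 0.03 and the pseudogene Rab7-ps1 at 0.04. Anxa1 had 2315 and 2134 counts with the HFD, against 1709 and 1376 with the ND, so that both it and Tnc were highest in the first HFD and lowest in the second ND library. Nearest to Tnr were Tusc1, Tmem179b and Tmem53, at 0.05 to 0.09. Tusc1 had 21 and 12 counts with the HFD, against 21 and 7 with the ND, so that, as for Tnr, first and second libraries of a diet stood further apart than the diets.

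**Figure D5:**
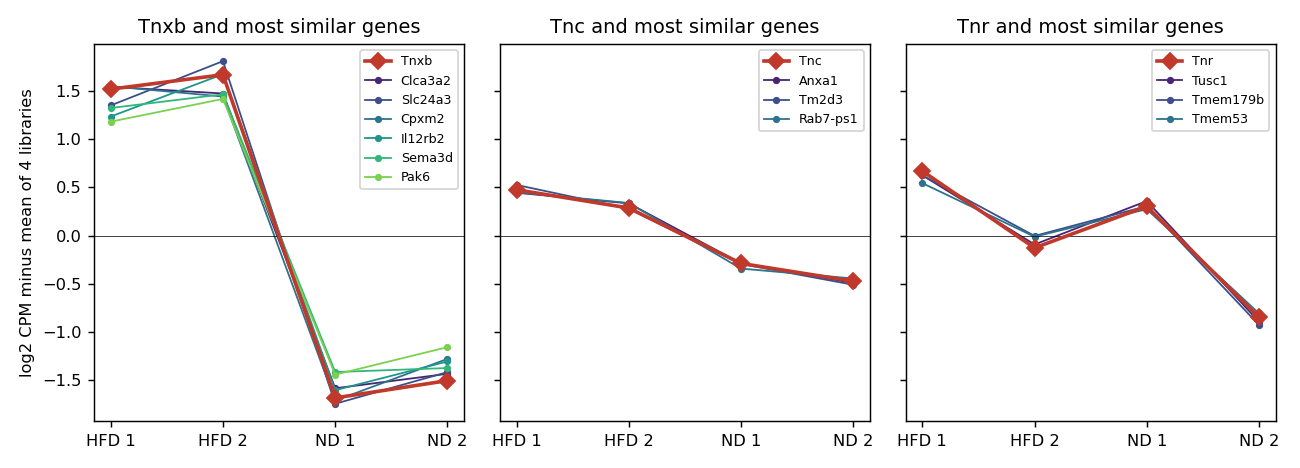
Log2 CPM minus its mean over the 4 libraries for Tnxb, Tnc and Tnr (red) and for the genes with the most similar pattern, with the HFD libraries left of the ND libraries. Tnxb and the genes like it separate the diets, Tnc and the genes like it do so by a smaller step, and Tnr and the genes like it vary between libraries of a diet.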

How the data were processed

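Libraries were grouped by the diet in their labels, 2 per diet. RNA was purified on silica columns, per the labels' protocols. HISAT2 2.0.1, cutadapt 1.9.1 and bcl2fastq 2.17.1.14 appear in the submitters' processing notes. No source used here gives the counting program, its handling of strand, the annotation or the build. The authors deposited raw counts per gene, and FPKM values that equal the count divided by exonic size and column total within 0.005 FPKM. Of the 55401 identifiers, 55141 occur in GENCODE M21 (GRCm38), 99.4% of them at the same position.

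Counts were tested in R 4.3.3 with edgeR 4.0.16 (TMM, quasi-likelihood, default filter by diet with a minimum of 10 counts in 2 libraries and 15 in total), with Benjamini-Hochberg adjustment over all 14479 genes and a threshold of 0.05. Standard errors are the fold change over the square root of F. Alternatives used DESeq2 1.42.0 and limma 3.58.1 on log2(FPKM + 1) and log2(FPKM + 0.1). The fits were run on counts simulated with independent libraries and the spread that edgeR estimated here. Such counts hold no shift shared by many genes of a library, so they do not test the fits against such shifts. Transcripts were aligned with BLAST 2.17.0 (megablast), and promoter sequences are RefSeq's (GRCm38.p6), with all 4 genes matched by symbol. The floor of 3 counts covers counting error only.

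The members, lists and tests were chosen with earlier results of these data known. Named are the tenascins, every tested gene within 100 kb of Tnxb, the called genes and the 3 most abundant of each list, and the 6 or 3 genes most like a tenascin. Others were named after their values were seen, to show a partner, a marker or an untested neighbour.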

Additional observations from a re-analysis of the deposited data

How the results depend on the processing

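The log2 fold change of Tnxb was 3.22, and 1.95 and 2.93 in limma with pseudocounts of 1 and 0.1 FPKM, which compress low values by construction. In the other alternatives, namely count filters, scalings, DESeq2 and the replicate block, it moved by less than the spread between libraries, and it ranged from 3.13 to 3.31 with 1 library left out. That of Tnc kept its direction and size in each alternative (0.66 to 0.86 with 1 library left out). That of Tnr, 0.52, ranged from 0.021 to 1.31 with 1 library left out.

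Over all genes, 162 were called higher and 33 lower. Without a filter these were 408 and 225, with a stricter filter 53 were lower, and with library totals only 65 were lower. Equal sums of TPM gave 88 higher and 3 lower, DESeq2 274 and 115, and limma 1 and 0 with either pseudocount. Without 1 library the counts ranged from 0 to 81 higher and from 0 to 2 lower, where the lone library of a diet is assumed to vary like the other pair. The cause of these differences was not tested.

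Of the receptors 1 was called higher, and 0 with equal sums of TPM, in limma with either pseudocount, or with any 1 library left out (0 to 0). Without a filter on low counts 1 matrix partner (Col12a1) was higher and 2 (Col14a1 and Fbln1) were lower, and 2 matricellular genes (Thbs1 and Thbs2) were higher, against 0 each in the fit reported. Among the neighbours of Tnxb 0 were called in any alternative, and a window of 50 kb held 12 other genes in place of 24.

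Replicate numbers recur in both diets, without a label that says they pair the libraries, and deviations of same-numbered libraries correlated at -0.0046 over 14479 genes. With the replicate block 308 genes were higher and 111 lower, 193 of them among the 195 called without it, 1 matrix partner (Col12a1) and 2 matricellular genes (Thbs1 and Thbs2) were higher, and the log2 fold change of Tnxb was 3.22.

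Tnn had too few counts to compare the diets. For Tnr a difference of the size seen in Tnc could not be told from the spread between libraries, and the part of depth in this was not tested.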
